A study of Mus musculus with 4 samples.

Results

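The costimulatory and coinhibitory genes described here are 10 named genes of the B7 family and of related T cell costimulation and checkpoint pathways, taken by symbol from the 55536 genes of the annotation: Cd80, Cd86, Cd40, Cd274, Pdcd1lg2, Icosl, Cd276, Havcr2, Cd83 and Cd48. They were measured by RNA-seq of polyA-selected RNA from primary macrophages grown from the bone marrow of C57BL/6J mice. All 4 libraries, biological replicates 1 to 4, belong to 1 group: cells that had 100 ng/ml lipid A for 12 h, then 12 h without it, and were taken at 0 min of a second stimulation. Lipid A is the part of bacterial lipopolysaccharide that activates TLR4, although the labels elsewhere call the agent lipoprotein A. No untreated cells belong to the series, so the values are levels after this pretreatment and not its effect. Age and sex were not recorded, and the replicates carry 1 donor identifier, so that p-values measure only the spread between these libraries, which may be technical.

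T cells need a second signal besides antigen, and macrophages and dendritic cells give it through B7 proteins on their surface. CD80 and CD86 bind CD28, which activates, and CTLA4, which restrains, while PD-L1 and PD-L2 bind the inhibitory receptor PD-1. CD40 works the other way round: it is a receptor on the macrophage that the T cell engages with CD40 ligand, and its signal raises B7 expression and cytokine output.

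The libraries held 48875472 and 57126810 expected counts on genes in replicates 3 and 4, against 25594340 and 27384162 in replicates 1 and 2. A count of 0 allows up to 3 counts, which is 0.0614 and 0.0525 CPM (counts scaled to the library total) in replicates 3 and 4, against 0.117 and 0.11 CPM in replicates 1 and 2, for counting error only. The deposited notes list 4 read files for each of replicates 3 and 4, against 6 for each of replicates 1 and 2, and mitochondrial genes made up 3.34% and 3% of all counts in replicates 3 and 4, against 0.778% and 1.16% in replicates 1 and 2. Genes of ribosomal RNA took 9.12% of counts in replicate 1 and 0.569% to 1.2% in the other libraries. The 8 macrophage markers, Lyz2, Cd68 and Adgre1 among them, were all at 1 TPM (a level scaled for transcript length and library total) or more in every library, and their TPM summed to 14849 and 17539 in replicates 3 and 4 and to 16549 and 17147 in replicates 1 and 2. The 8 dendritic cell markers summed to 2.51 to 3.94 TPM in replicates 3 and 4 and to 4.38 to 5.35 TPM in replicates 1 and 2. Most of it was Ccr7, with 2.24 and 1.46 TPM in replicates 3 and 4, against 3.92 and 3.39 TPM in replicates 1 and 2. Flt3 and Zbtb46 were at no more than 0.15 TPM. The 8 B cell markers summed to at most 6.4 TPM and the 8 T and NK cell markers to at most 1.48 TPM. The 8 neutrophil markers ranged more widely, with sums of 6.41 to 70.7 TPM in replicates 3 and 4, against 13.9 to 85.5 TPM in replicates 1 and 2, nearly all of it S100a8 and S100a9, and with Ly6g at 0. Mast cell and basophil markers summed to at most 0.96 TPM, with Mcpt4, Tpsb2 and Cma1 at 0, and those of fibroblast and endothelium to at most 8.22 TPM. The part of these other cells in the levels below was not tested.

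Transcript forms of Cd40, Cd83 and Cd80 differed by short stretches of RNA, which are printed here because the transcript results below turn on them. All are on the plus strand of mm10, read from GENCODE M21 transcripts. The sixth exon of Cd40-201, the full-length form, is 62 bases at chr2:165066503-165066564. Cd40-203 lacks it, and since 62 is not a multiple of 3 the reading frame shifts. Capitals mark that exon in the first line, the start of the exon that follows the fifth in the second line, the start of the exon that follows the sixth in Cd40-202 in the third, and the intron bases that Cd40-207 keeps after the seventh exon in the fourth.
Cd40-201: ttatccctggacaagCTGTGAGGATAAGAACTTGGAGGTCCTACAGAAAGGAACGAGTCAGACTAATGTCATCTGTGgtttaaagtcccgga
Cd40-203: ttatccctggacaagGTTTAAAGTCCCGGA
Cd40-202: ctaatgtcatctgtgAAAAGGTGGTCAAGA
Cd40-207: tgtttctctatatcaGTGAGTGCTCAGGAG

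For Cd83 the annotation holds a spliced coding form, Cd83-201, and a form of the retained-intron class, Cd83-202, which keeps the 95 bases of the first intron at chr13:43785251-43785345. They are in capitals in the first line, between 15 bases of exon on each side, and the second line shows the spliced junction with the start of the second exon in capitals. Read from the start codon of Cd83-201, Cd83-202 has its first stop codon in frame after 43 codons, at base 93 of the kept intron, against 196 codons in Cd83-201. For Cd80, the third line is the junction of Cd80-203, which skips a 282-base exon, with the start of the joined exon in capitals.
Cd83-202: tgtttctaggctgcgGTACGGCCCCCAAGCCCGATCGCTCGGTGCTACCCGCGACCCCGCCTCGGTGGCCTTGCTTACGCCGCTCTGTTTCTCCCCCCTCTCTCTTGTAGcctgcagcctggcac
Cd83-201: tgtttctaggctgcgCCTGCAGCCTGGCAC
Cd80-203: agttgtccatcaaagCCCCAGAAGACCCTC

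Of the 10 genes, 8 were at 1 TPM or more in every library, as were 18.9% of all genes (10476 of 55536). All genes here include pseudogenes and noncoding genes, so that the sets are unlike. The coinhibitory ligand Cd274 stood highest, followed by Cd48, Cd40 and Cd86, and the levels spanned from 492 TPM to 0.143 TPM on average. Cd274 alone made up 55.8% and 52.9% of the summed TPM of the 10 genes in replicates 3 and 4, against 53.9% and 50.7% in replicates 1 and 2. Pdcd1lg2 and Cd276 were the 2 genes under 1 TPM. In such bulk RNA, fewer cells that carry a transcript and less of it per cell cannot be told apart.

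**Figure D1:**
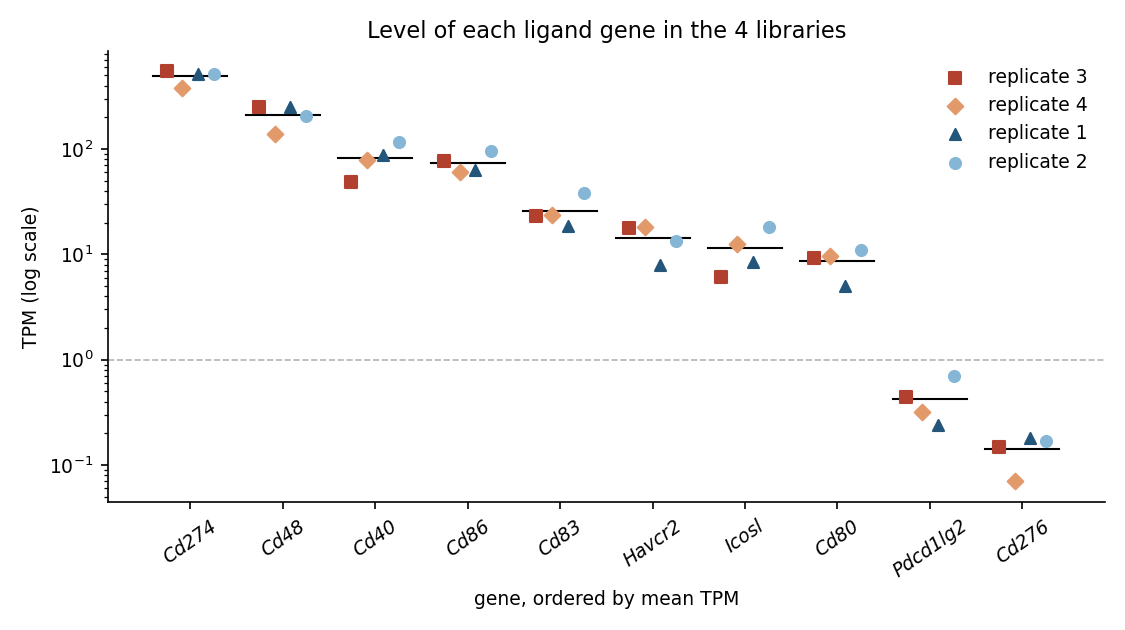
TPM of the 10 genes on a log axis, ordered by mean, with 1 point per library (replicates 3, 4, 1 and 2 from left to right), a bar at the mean of the 4 libraries and a dashed line at 1 TPM. Cd274 sits between 384.1 and 548.2 TPM, while Pdcd1lg2 and Cd276 lie under the line in every library.

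Among the ligands of inhibitory receptors, Cd274 encodes PD-L1, which engages PD-1 on T cells. It had 548.2 and 384.1 TPM in replicates 3 and 4, against 517.5 and 517.4 TPM in replicates 1 and 2 (492 ± 73.2 TPM, SD, n = 4), which ranked it 270 of all genes. In these values, from the RSEM layout, replicate 4 was the lowest, and the pairs of libraries overlapped. Another quantification, in the kallisto layout, gave 534 and 374 TPM in replicates 3 and 4, against 364 and 369 TPM in replicates 1 and 2. There replicate 1 was the lowest and the pairs did not overlap. Over genes at 1 TPM or more, that layout's median was 0.77 and 0.78 times the RSEM value in replicates 1 and 2. Pdcd1lg2, which encodes PD-L2, the other PD-1 ligand, had 0.44 and 0.32 TPM in replicates 3 and 4, against 0.24 and 0.70 TPM in replicates 1 and 2 (0.425 ± 0.201 TPM, SD, n = 4). Its values rest on 21 and 18 expected counts in replicates 3 and 4 and on 6 and 18 in replicates 1 and 2, above the 3 that a count of 0 allows. The kallisto layout gave Pdcd1lg2 0.659 and 0.674 TPM in replicates 3 and 4, against 0.301 and 0.778 TPM in replicates 1 and 2. The size of its gap to Cd274 therefore depends on the layout. In the RSEM layout the TPM of Cd274 was 1246 and 1200 times that of Pdcd1lg2 in replicates 3 and 4. It was 2156 and 739 times in replicates 1 and 2. On the log2(TPM + 1) scale, which understates such a gap, the ratio was 8.43 ± 0.25 (SD, n = 4), positive in 4 of 4 libraries, with p = 0.13 by an exact two-sided sign-flip permutation test, the smallest that 4 libraries allow (2 of 16 sign patterns) (adjusted p = 0.13 over 3 pairs).

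These PD-1 ligand genes are neighbours on chromosome 19, Cd274 at chr19:29367455-29388095 and Pdcd1lg2 at chr19:29410919-29471161, both on the plus strand, with a gap of 22823 bp in which no annotated gene starts. The 250 bases before their start sites (RefSeq, GRCm38.p6, at chr19:29367188-29367437 and chr19:29410669-29410918) are shown because neighbours on 1 strand stood so far apart in level, with capitals for a match to the NF-kB letters.
Cd274: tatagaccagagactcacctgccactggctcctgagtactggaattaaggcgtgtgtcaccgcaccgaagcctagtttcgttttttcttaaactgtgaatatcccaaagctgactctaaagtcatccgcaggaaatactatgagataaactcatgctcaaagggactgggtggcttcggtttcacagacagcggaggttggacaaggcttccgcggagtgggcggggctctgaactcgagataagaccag
Pdcd1lg2: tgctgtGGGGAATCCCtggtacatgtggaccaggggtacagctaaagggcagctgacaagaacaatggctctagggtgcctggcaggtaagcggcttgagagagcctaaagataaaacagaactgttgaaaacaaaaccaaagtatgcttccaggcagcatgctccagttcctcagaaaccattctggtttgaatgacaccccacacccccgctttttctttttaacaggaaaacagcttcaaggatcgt
RefSeq promoters of 300 bases (250 before to 50 after the start) were at hand for 7 of the 10 genes, all but Cd86, Cd40 and Cd83. On both strands, letters of an NF-kB motif (GGG and CC with any 5 bases between them) were in 4 of the 7, Cd80, Icosl, Cd276 and Pdcd1lg2, as in 50.8% of all 32851 promoters. Letters of an AP-1 motif (TGANTCA) were in 2 of 7, Cd80 and Havcr2, against 7.81% of all promoters. Those of an interferon regulatory factor motif (GAAA and GAAA with any 2 bases between them) and of a STAT motif (TTC and GAA with any 3 bases between them) were in 0 of 7, against 3.44% and 8.3%. No match of a motif shared a base with a match of another, and letters in a window are not evidence of a bound factor.

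Havcr2 (chr11:46454935-46481255, plus strand) encodes TIM-3, an inhibitory receptor that macrophages carry themselves. It had 17.9 and 18.03 TPM in replicates 3 and 4, against 7.86 and 13.33 TPM in replicates 1 and 2 (14.3 ± 4.81 TPM, SD, n = 4). Both libraries of the first pair were above both of the second. Cd276 (chr9:58524298-58555437, minus strand) encodes B7-H3, a B7 protein whose receptor is not settled. At 0.15 and 0.07 TPM in replicates 3 and 4, against 0.18 and 0.17 TPM in replicates 1 and 2, it was the lowest of the 10 (0.143 ± 0.0499 TPM, SD, n = 4). It rests on 15 and 8 expected counts in replicates 3 and 4 and on 5 and 9 in replicates 1 and 2, too few to order the libraries.

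Of the ligands of CD28 and CTLA4, Cd86 stood above Cd80 in every library. Cd86 encodes B7-2, the form that resting antigen-presenting cells carry, and had 77.23 and 60.61 TPM in replicates 3 and 4, against 63.92 and 95.04 TPM in replicates 1 and 2 (74.2 ± 15.6 TPM, SD, n = 4). Cd80 encodes B7-1, which binds both receptors more tightly and appears later on activated cells, and had 9.31 and 9.59 TPM in replicates 3 and 4, against 4.97 and 11.08 TPM in replicates 1 and 2 (8.74 ± 2.63 TPM, SD, n = 4). For both genes replicate 2 was highest and the pairs of libraries overlapped in the RSEM layout. In the kallisto layout replicate 3 was highest for both, at 76.8 TPM for Cd86 and 15.6 TPM for Cd80. There Cd80 had 15.6 and 14.8 TPM in replicates 3 and 4, against 4.87 and 10.2 TPM in replicates 1 and 2, without overlap. In the RSEM layout the TPM of Cd86 was 8.3 and 6.32 times that of Cd80 in replicates 3 and 4. It was 12.9 and 8.58 times in replicates 1 and 2. The log2(TPM + 1) ratio was 2.97 ± 0.37 (SD, n = 4, exact sign-flip permutation p = 0.13, adjusted p = 0.13), and its mean was 2.45 in the kallisto layout. Both genes lie on chromosome 16, Cd86 at chr16:36603869-36666081 on the minus strand and Cd80 at chr16:38455561-38496335 on the plus strand, 1789479 bp apart. Against Cd86, the leading costimulatory B7 gene, Cd274 was higher in 4 of 4 libraries, by 2.72 ± 0.24 on the log2(TPM + 1) scale (SD, n = 4; exact sign-flip permutation p = 0.13, adjusted p = 0.13).

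Icosl (chr10:78069302-78083913, plus strand) encodes the ligand of ICOS, a CD28 relative that supports helper T cells. It had the widest fold range of the 10, with 6.14 and 12.63 TPM in replicates 3 and 4, against 8.38 and 18.29 TPM in replicates 1 and 2 (11.4 ± 5.35 TPM, SD, n = 4). The pairs of libraries overlapped, replicate 2 being 2.98 times replicate 3. Cd83 (chr13:43784775-43803132, plus strand) encodes a surface protein known as a marker of mature dendritic cells, which in mouse protects CD86 and class II molecules from degradation. It had 23.11 and 23.89 TPM in replicates 3 and 4, against 18.73 and 38.4 TPM in replicates 1 and 2 (26 ± 8.55 TPM, SD, n = 4). Replicates 3 and 4 lay between the other libraries.

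Cd48 (chr1:171682009-171705258, plus strand) encodes a SLAM family protein held by a lipid anchor, a ligand of CD2 and CD244 on T and NK cells. At 251.8 and 139.1 TPM in replicates 3 and 4, against 250.4 and 208.3 TPM in replicates 1 and 2, it was the second most abundant of the 10 (212 ± 52.9 TPM, SD, n = 4). Replicate 4 was again the lowest, and the pairs overlapped. Cd40, at chr2:165055627-165072948 on the plus strand, had 48.49 and 78.2 TPM in replicates 3 and 4, against 88.35 and 117 TPM in replicates 1 and 2 (83 ± 28.3 TPM, SD, n = 4). Here both libraries of the first pair were below both of the second in the RSEM layout. The kallisto layout gave Cd40 48.4 and 77.9 TPM in replicates 3 and 4, against 72.3 and 106 TPM in replicates 1 and 2. There the pairs overlapped.

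Neighbours in the order by mean TPM were compared by their log2(TPM + 1) ratio within each library. That order was taken from the same 4 libraries, so that agreement in sign is partly built in. The ratios describe the spread between libraries and are not support for the order. For 6 of the 9 neighbouring pairs the ratio had the same sign in 4 of 4 libraries (exact two-sided sign-flip permutation p = 0.13, the smallest possible, adjusted p = 0.188 over 9). For the other 3 the libraries were split, so that their order was not settled beyond the spread: Cd40 over Cd86 (0.11 ± 0.52, SD, n = 4, exact permutation p = 0.75, adjusted p = 0.75), Havcr2 over Icosl (0.34 ± 0.80, p = 0.625, adjusted p = 0.703) and Icosl over Cd80 (0.29 ± 0.56, p = 0.375, adjusted p = 0.482). In the RSEM layout, replicate 2 held the highest TPM of 6 of the 10 genes, Cd86, Cd40, Cd83, Icosl, Cd80 and Pdcd1lg2. It also held that of 38.6% of the genes tested between libraries, a set that leaves out Pdcd1lg2 and Cd276. These counts were made after the values were seen. The median SD of log2(TPM + 1) over the 4 libraries was 0.44 for the 8 genes tested and 0.29 for all genes tested.

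Replicates 3 and 4 were set against replicates 1 and 2 because the notes list different numbers of read files for them, a comparison of libraries and not of conditions. Of the 8 genes that passed the filter on low counts, 1 passed the threshold of 0.05 on the adjusted p, Cd40, which was lower in replicates 3 and 4; over all genes tested 5.80% were called in either direction and 3.72% lower. In rounded expected counts, Cd40 had 1441 and 2588 in replicates 3 and 4, against 1711 and 2554 in replicates 1 and 2, from libraries of unequal size. Scaled to library size, its log2 fold change was -1.15 ± 0.23 (SE), lower in 2 of 2 libraries, with adjusted p = 0.0493 by edgeR's quasi-likelihood test. The call was lost without any 1 of the 4 libraries (adjusted p = 0.071 to 0.225, log2 fold change -1.47 to -0.87), and also under 2 of the other settings. Per length the difference was smaller, 63.3 TPM in replicates 3 and 4, against 103 TPM in replicates 1 and 2 on average, which is -0.70 on the log2 scale.

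Havcr2, higher in both libraries of the first pair, had a log2 fold change of 0.79 ± 0.21 (SE) and an adjusted p of 0.0778 by edgeR's quasi-likelihood test. DESeq2 called it (adjusted p = 0.0235) along with Cd40, where it called 15.6% of the genes tested. Of the 8 genes tested, Cd40 and Havcr2 had pairs of libraries that did not overlap in TPM of the RSEM layout. Such separation was common, at 56.5% of the genes tested. In the kallisto layout the pairs overlapped for Cd40, while those of Havcr2, Cd274 and Cd80 did not. The share over all genes was not computed for that layout, so this separation has no background to be read against. Over genes at 1 TPM or more, that layout's median was 1.02 times the RSEM value in replicates 3 and 4. It was 0.77 and 0.78 times in replicates 1 and 2, a shift between the pairs that is not particular to these genes. Among the other 6 genes tested the log2 fold changes ran from -0.49 ± 0.41 (SE) for Icosl to 0.39 ± 0.30 (SE) for Cd80 (0.05 without replicate 1 and 0.88 without replicate 2), with edgeR adjusted p of 0.429 to 0.751, and the smallest was that of Cd274 at -0.14 ± 0.26 (SE). The median log2 fold change was -0.22 over the 8 genes and -0.01 over all genes tested, and the median size regardless of sign was 0.33 over the 8 genes and 0.36 over all genes tested. Pdcd1lg2 and Cd276 did not pass the filter and have no test.

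**Figure D2:**
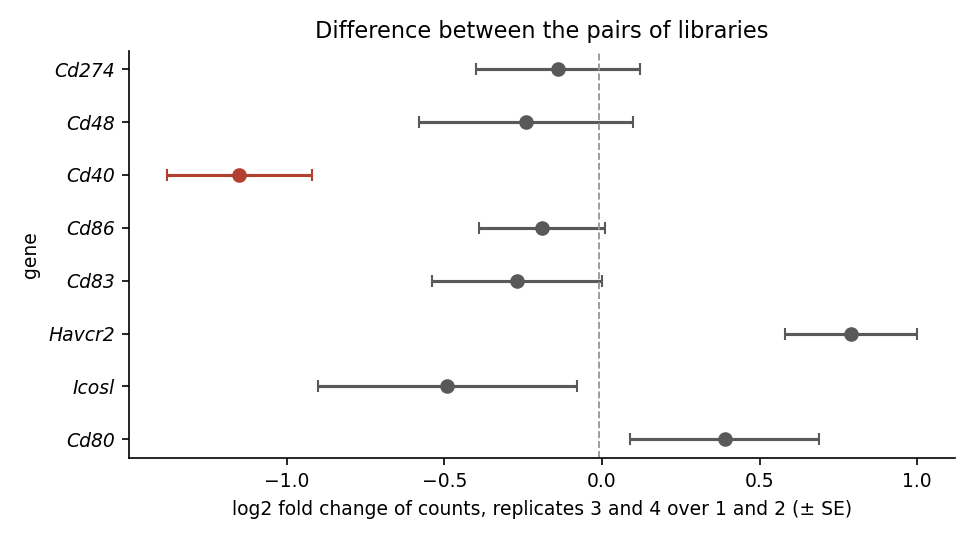
Log2 fold change of rounded expected counts, replicates 3 and 4 over replicates 1 and 2, for the 8 genes tested, with bars of 1 SE from edgeR and a dashed line at the median of all genes tested (-0.01). Cd40 (in red, adjusted p under 0.05) lies at -1.15 and Havcr2 at 0.79, while the bars of Cd274, Cd48, Cd86 and Cd83 cross the line.

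The transcripts of Cd40 were split between several forms, and the mix differed between the pairs of libraries. The 10 genes have 31 annotated transcripts, 22 of them protein coding. Cd40-203, the form without the sixth exon, made up 63.4% and 67% of Cd40 TPM in replicates 3 and 4, against 30.5% and 31.6% in replicates 1 and 2, in the table of the RSEM layout. The kallisto-layout table gave 51.6% and 59.7% in replicates 3 and 4, against 25.8% and 24.8% in replicates 1 and 2. In both tables its share was higher in both libraries of the first pair. A mouse CD40 form without the sixth exon has been described as lacking the membrane anchor and as secreted. The model of Cd40-203 has 203 codons in 668 bases and ends 24 bases into its last exon, whereas the last exon of Cd40-201 (289 codons) runs for 2227 bases.

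As TPM, Cd40-203 had 30.7 and 52.4 in replicates 3 and 4, against 26.9 and 37 in replicates 1 and 2, so that its level overlapped between the pairs. All other Cd40 transcripts together had 17.8 and 25.8 TPM in replicates 3 and 4, against 61.4 and 80 TPM in replicates 1 and 2, which did not overlap. This sum was made after the values were seen and leaves out the form whose level overlapped, so its separation is a description only. The share of all transcripts with such separation was not computed. Cd40-201, which encodes the membrane receptor, made up 11% and 11.1% of Cd40 TPM in replicates 3 and 4, against 16.7% and 18.7% in replicates 1 and 2. The kallisto layout put it at 9.44% and 9.13% in replicates 3 and 4, against 10.7% and 10.6% in replicates 1 and 2, a much smaller gap. By expected counts, which are not divided by length, this long form held 34.9% and 37% of Cd40 in replicates 3 and 4, against 40% and 43.3% in replicates 1 and 2. The short Cd40-203 held 30.2% and 33.1% of these counts in replicates 3 and 4, against 11.1% and 11% in replicates 1 and 2. By counts it was thus below Cd40-201 in every library, and its lead in TPM rests on the division by length. Cd40-202 lacks the 87-base seventh exon and keeps the frame. It made up 19.3% and 14.8% of Cd40 TPM in replicates 3 and 4, against 29.7% and 28.7% in replicates 1 and 2. Read in the frame of Cd40-201, that exon encodes a run of mostly hydrophobic residues, such as a membrane anchor has. Cd40-203 may therefore not be the only form without an anchor, and whether Cd40-202 is anchored was not tested. Cd40-207 is annotated as a target of nonsense-mediated decay and keeps a 101-base intron after the seventh exon. It made up 5.05% and 5.4% in replicates 3 and 4, against 18.4% and 18.7% in replicates 1 and 2. The kallisto layout put this form at 9.59% and 8.28% in replicates 3 and 4, against 25.5% and 22.9% in replicates 1 and 2. The lower Cd40 total in replicates 3 and 4 thus went with lower values of every named form but Cd40-203. Since these shares are estimates from short reads that several forms share, they carry no test, and the part of library preparation in them was not tested.

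**Figure D3:**
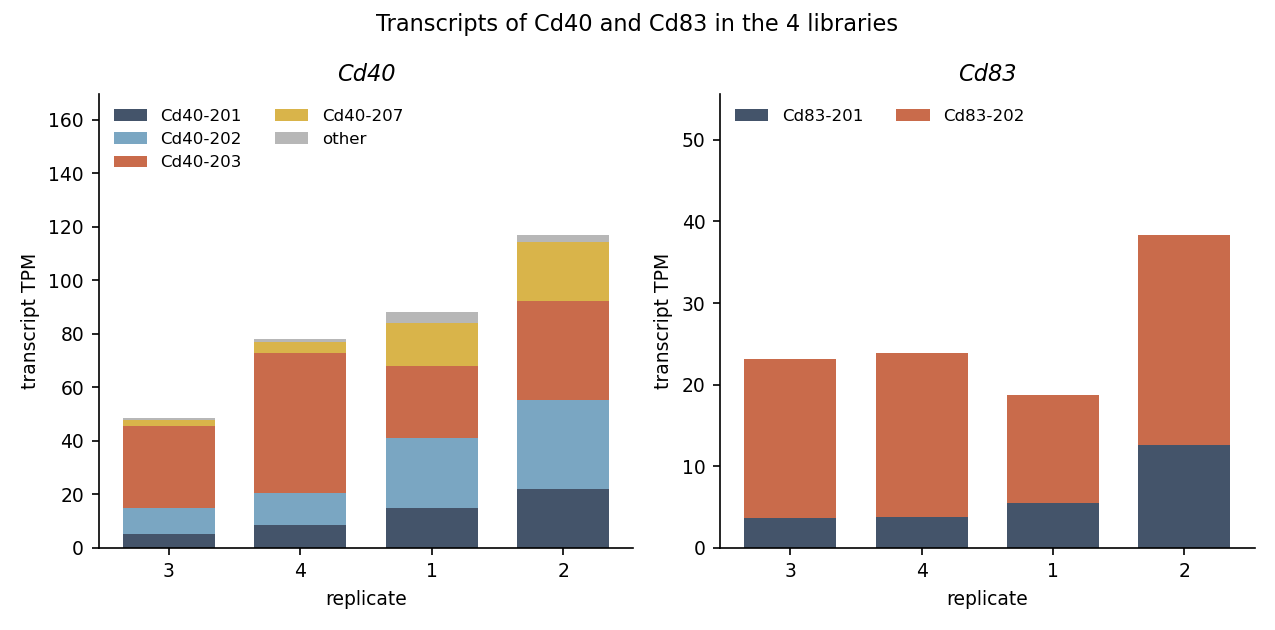
Transcript TPM (RSEM layout) of Cd40 and Cd83 stacked by form, with replicates 3, 4, 1 and 2 from left to right and a linear axis from 0. The Cd40-203 segment makes up most of the bar in replicates 3 and 4 (30.7 and 52.4 TPM) and less of it in replicates 1 and 2 (26.9 and 37 TPM), and the Cd83-202 segment is the larger in every library.

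For Cd83 most of the TPM fell on the form that keeps the first intron. Cd83-202 made up 84.4% and 84.4% of Cd83 TPM in replicates 3 and 4, against 70.6% and 67.1% in replicates 1 and 2. The kallisto layout put it at 81% and 79.7% in replicates 3 and 4, against 68.3% and 69.3% in replicates 1 and 2. The coding form Cd83-201 had 3.61 and 3.72 TPM in replicates 3 and 4, against 5.5 and 12.6 TPM in replicates 1 and 2. In the kallisto layout it had 4.31 and 4.81 TPM in replicates 3 and 4, against 4.22 and 9.14 TPM in replicates 1 and 2. The coding level was thus lower in both libraries of the first pair in the RSEM layout alone, and the pairs overlapped in the kallisto layout. Cd83-202 also starts 410 bases downstream of Cd83-201 within the same first exon, so that the forms differ at their 5' end as well as in the intron.

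Cd80 was shared mainly between Cd80-201 and Cd80-202, both coding. Cd80-201 made up 45.3% and 48.2% in replicates 3 and 4, against 63.4% and 57% in replicates 1 and 2. Cd80-202 made up 50.8% and 43.5% in replicates 3 and 4, against 36.6% and 35.5% in replicates 1 and 2. In the kallisto layout Cd80-201 came to 42.8% and 49.5% in replicates 3 and 4, against 71.4% and 66.3% in replicates 1 and 2. Cd80-202 came to 34.7% and 30.3% in replicates 3 and 4, against 28.6% and 30.5% in replicates 1 and 2, so that its pairs overlapped there. The exon-skipping form Cd80-203 (212 codons, against 306 in Cd80-201) came to 3.87% and 8.34% in replicates 3 and 4 and to 0% and 7.49% in replicates 1 and 2 in the RSEM layout, but to 22.6% and 20.2% in replicates 3 and 4 and to 0% and 3.19% in replicates 1 and 2 in the kallisto layout. The tables therefore differ on how much of Cd80 skips that exon and on whether the share of Cd80-202 separates the pairs of libraries.

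The remaining genes were dominated by 1 form, with shares given here from the RSEM layout. Cd274 has a single annotated transcript. Cd48-202 held at least 99% of Cd48 in every library, Cd86-201 held 95.2% to 97% of Cd86, and Icosl-201 held 85.5% to 91.1% of Icosl. Havcr2-201 held 90.6% of Havcr2 in replicate 3 and 100% in the other libraries, while the kallisto layout gave 100% in all 4. Pdcd1lg2-201 held all of Pdcd1lg2 except in replicate 1, where Pdcd1lg2-202 took its place, and the kallisto layout also gave Pdcd1lg2-202 36.8% in replicate 4. Cd276-201 held all of Cd276 except in replicate 1, where Cd276-203 had 47.1%. In replicate 1 these shares rest on 6 and 5 expected counts for the whole gene. Of the expected counts of Cd276 there, 94.6% were on Cd276-201 and 5.4% on Cd276-203.

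Other genes of the pathway were taken from 7 lists. For the counts below, 18.9% of all genes were at 1 TPM or more in every library. That share includes pseudogenes and noncoding genes, while the lists hold genes picked for a known role, so that the sets are unlike. Over all genes tested, 5.80% were called between the pairs of libraries in either direction. Of the 13 receptors that T cells carry, 2 were at 1 TPM or more in every library, Cd28 and Lag3, and 0 of 3 tested were called. Cd28, the receptor that CD80 and CD86 activate, had 45.79 and 48.46 TPM in replicates 3 and 4, against 17.57 and 36.21 TPM in replicates 1 and 2 (37 ± 14 TPM, SD, n = 4), so that both libraries of the first pair were higher. The T cell genes Cd3e and Cd3d were at no more than 0.43 TPM in the same libraries. Lag3, an inhibitory receptor that binds class II molecules, had 7.33 and 2.59 TPM in replicates 3 and 4, against 5.72 and 7.05 TPM in replicates 1 and 2. Tnfrsf9, which encodes 4-1BB, averaged 1.05 ± 0.674 TPM (SD, n = 4). Cd40lg, the ligand of CD40, was listed at 0 TPM in every library.

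The 8 adaptors of CD40 signalling were all at 1 TPM or more in every library. Of the 8, 1 was called between the pairs of libraries, lower, beside 3.72% of all genes tested that were called lower. Traf2, which links CD40 to the NF-kB and JNK pathways, had 15.38 and 16.3 TPM in replicates 3 and 4, against 26.75 and 37.01 TPM in replicates 1 and 2 (log2 fold change of counts -0.91 ± 0.16 SE, adjusted p = 0.0414, edgeR's quasi-likelihood test). Like Cd40 it was lower in both libraries of the first pair, and its call too was lost without any 1 of the 4 libraries (log2 fold change -1.02 to -0.78, adjusted p = 0.0562 to 0.228). Birc3, a ubiquitin ligase that is also an NF-kB target, averaged 93.5 ± 23.4 TPM (SD, n = 4). Traf1, another NF-kB target, had 12.79 and 27.14 TPM in replicates 3 and 4, against 22.42 and 89.71 TPM in replicates 1 and 2, with replicate 2 far above the others.

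Of 10 genes listed as partners and regulators of the 10 genes' proteins, all 10 were at 1 TPM or more in every library and 0 were called. Lgals9, which encodes galectin-9, a ligand of TIM-3, averaged 941 ± 149 TPM (SD, n = 4). Tnfrsf14, a binding partner of the checkpoint protein BTLA, which is not among the 10, averaged 178 ± 63.4 TPM (SD, n = 4). Hmgb1, another TIM-3 ligand, averaged 153 ± 74.5 TPM (SD, n = 4). The SLAM family, to which CD48 belongs, was at 1 TPM or more in every library for all 8 genes, with 0 called. Cd84, a self-binding receptor, averaged 644 ± 180 TPM, Slamf7 605 ± 65.9 TPM and Ly9 574 ± 213 TPM (SD, n = 4 each).

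Among 5 other B7 and butyrophilin-like ligands, 1 was at 1 TPM or more. Vsir, which encodes the checkpoint ligand VISTA, had 189 and 224.9 TPM in replicates 3 and 4, against 88.11 and 109.3 TPM in replicates 1 and 2 (153 ± 64.8 TPM, SD, n = 4). It was higher in both libraries of the first pair in TPM but was not called, with a log2 fold change of counts of 0.32 ± 0.16 (SE, adjusted p = 0.252 by edgeR). The other 4, Vtcn1, Btn1a1, Btn2a2 and Ildr2, were listed at 0 TPM in every library. Of 7 ligands of the TNF family, 2 were at 1 TPM or more in every library and 0 were called. They were Tnfsf9, the ligand of 4-1BB, with 1.52 and 2.53 TPM in replicates 3 and 4, against 3.23 and 22.21 TPM in replicates 1 and 2, and Tnfsf15, with 2.90 and 6.35 TPM in replicates 3 and 4, against 2.70 and 12.51 TPM in replicates 1 and 2. Tnfsf8, the ligand of CD30, averaged 2.07 ± 0.982 TPM (SD, n = 4). Of 8 adhesion, nectin and CD200 ligands, 6 were at 1 TPM or more in every library and 0 were called, led by Icam1, the ligand of the integrin LFA-1 (216 ± 81.5 TPM), Alcam, the ligand of CD6 (112 ± 45 TPM), and Pvr, a ligand of CD226 and TIGIT (21 ± 3.48 TPM, SD, n = 4 each).

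**Figure D4:**
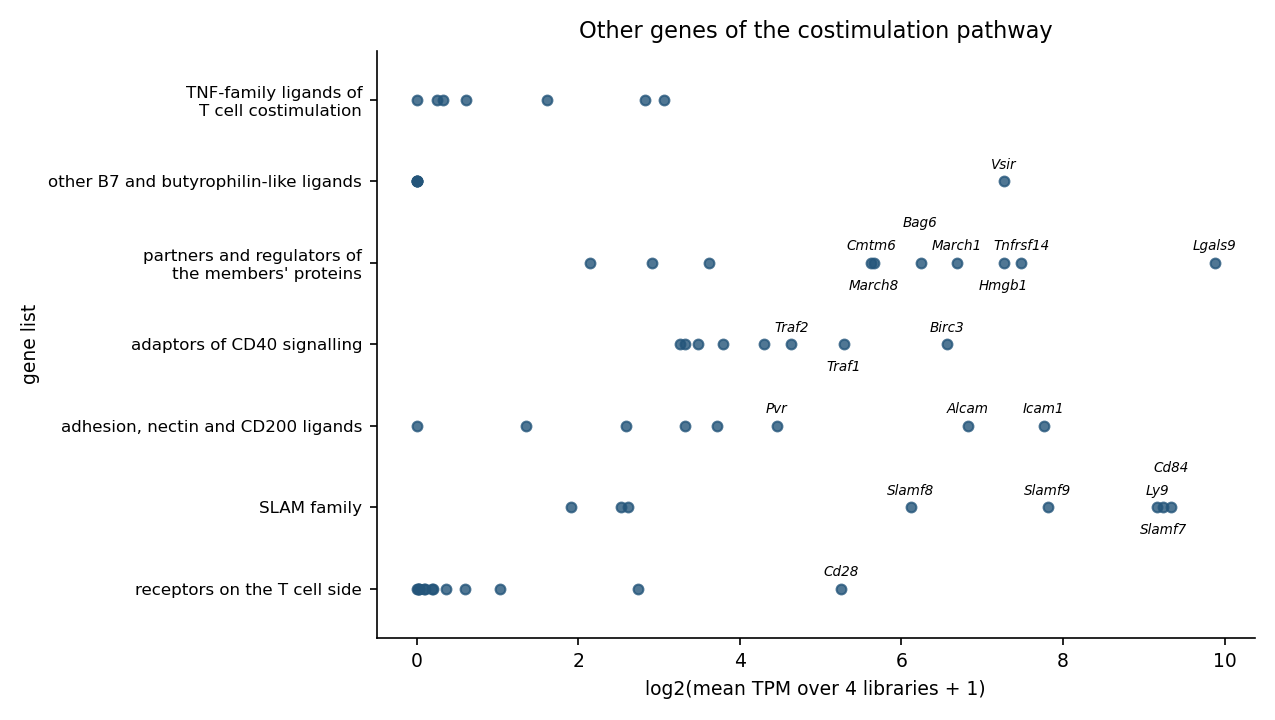
Level of the genes of the 7 lists, as log2 of the mean TPM over the 4 libraries plus 1, with 1 point per gene and names for genes at 20 TPM or more. Vsir stands alone above 0 among the other B7-like ligands, and Cd28, at 37 TPM, lies far from the other receptors of the T cell side.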

How the data were processed

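Per the labels, polyA-selected RNA of 4 libraries was sequenced. Per the deposited notes, values were made on mm10 with GENCODE M21: gene and transcript tables in the RSEM layout from a transcriptome alignment, and a transcript table in the kallisto layout from the reads. Program names and versions were not given in the sources used here, and the layouts are read from the column names. The authors deposited expected counts without normalization, and TPM scaled within a library over all rows; totals and tests here omit 97 spike-in and 26248 tRNA rows.

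Levels are TPM of the gene tables, as mean ± SD over 4 libraries. Ratios are log2((TPM + 1)/(TPM + 1)) within a library, tested by exact sign-flip permutation with Benjamini-Hochberg adjustment. Expected counts were rounded and replicates 3 and 4 compared with replicates 1 and 2 in edgeR 4.0.16 (R 4.3.3) by its quasi-likelihood test after TMM scaling, for the 11991 genes that filterByExpr kept at a minimum count of 10, adjustment over all tested genes, threshold 0.05. The SE is the absolute log2 fold change over the square root of F. The fit was tested on simulated data with known changes. DESeq2 1.42.0 was an alternative tool. Tables and figures used Python 3.11.15, pandas 2.3.3, numpy 2.4.6 and matplotlib 3.10.9.

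All 10 genes are named, and in each pathway list the 3 of highest mean TPM plus any called. Transcripts are named if they lead their gene in either table or hold 20% of it in a library; Cd40-201 was added after its values were seen, and so was every marker gene named. The genes, lists, tests and alternatives were chosen with earlier results of these data known. Results were recomputed with another normalization, filter, pseudocount, quantification or TPM scaling, with GC and length offsets, and without each replicate.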

Additional observations from a re-analysis of the deposited data

Results flagged for a closer look

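By Dixon's criterion for a group of 4, which chance meets in about 1 in 20 groups, 3 values stood far from those of the other 3 libraries. Levels, ratios and transcript shares of many genes were screened, so that some values would meet the criterion by chance alone. The log2(TPM + 1) ratio of Cd40 over Cd86 was -0.66 in replicate 3, against 0.30 to 0.46 in the others. Tnfsf9 was at 22.2 TPM in replicate 2 and at 1.52 to 3.23 TPM elsewhere, and Icam1 was at 337 TPM in replicate 2 and at 162 to 188 TPM elsewhere. Another 5 values are transcript shares whose other 3 libraries sit at exactly 0% or 100%, where any deviation meets the criterion and that rate does not hold. Havcr2-201 held 90.6% of Havcr2 TPM in replicate 3 in the RSEM layout, and 100% in the kallisto layout. In replicate 1, Pdcd1lg2-201 held 0% and its complement Pdcd1lg2-202 held 100% of a gene with 6 expected counts there. Cd276-201 held 52.9% and its complement Cd276-203 held 47.1% of a gene with 5, though Cd276-203 held only 5.4% of those expected counts.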

How the results depend on the processing

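The number of genes called between the pairs of libraries, 696 (250 higher and 446 lower), was 304 with no normalization factors, 1866 with DESeq2, 2569 with no filter, and 0 to 671 when a replicate was left out. It was 177 without replicate 1, 671 without replicate 2, and 0 without replicate 3 (1955 at an unadjusted p under 0.05) or replicate 4 (1966). With GC and length offsets 534 were called, 266 higher and 268 lower. Cd40 fell short of the threshold with no normalization factors (-1.10, adjusted p = 0.0786), with GC and length offsets (-1.06, adjusted p = 0.0583) and without each replicate (-1.47 to -0.87), and Traf2 with no normalization factors (-0.86, adjusted p = 0.0893). Havcr2 passed it with DESeq2 (0.79, adjusted p = 0.0235), with no filter (0.84, adjusted p = 0.00208) and without replicate 2 (1.07, adjusted p = 0.0456). The sign of an uncalled fold change turned for Cd274 without replicate 1 (0.00) and 4 (0.10), for Cd48 without replicate 1 (0.06) and 4 (0.14), and without replicate 2 for Cd83 (0.18) and Icosl (0.02). Leaving out a replicate gave -0.43 to 0.10 for Cd274, -0.74 to 0.14 for Cd48, -0.60 to 0.18 for Cd83, -1.07 to 0.02 for Icosl, 0.57 to 1.07 for Havcr2, 0.05 (without replicate 1) to 0.88 (without replicate 2, adjusted p = 0.0808) for Cd80 and -0.38 (without replicate 3) to -0.01 (without replicate 4) for Cd86. The kallisto layout gave 410 TPM for Cd274 and 11.4 TPM for Cd80, turned the ratio of Icosl over Cd80 to -0.07, and gave Icosl-201 a share of 80.4%; that table's TPM was 1.02 times the RSEM value in replicates 3 and 4 and 0.77 and 0.78 times in replicates 1 and 2, as medians over genes. Scaled to protein-coding genes, Cd274 was at 567 TPM. At a limit of 10 TPM, 5 of the 10 genes passed in every library. The cause of these shifts was not tested. The 21 alternatives for the 3 member pairs kept their direction, and the exact permutation test of 4 libraries cannot pass 0.05. With kallisto-layout TPM the mean log2(TPM + 1) ratio was 7.99 for Cd274 over Pdcd1lg2, against 8.43 in the RSEM layout. For Cd86 over Cd80 it was 2.45, against 2.97. A filter by pairs of libraries and the alternatives for other pathway genes' levels were added after the data were seen. No paired comparison of groups was possible because the series has 1 group, and only the ratios of genes were paired, within each library. Depth limits Pdcd1lg2 and Cd276, with 5 to 21 expected counts a library.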
